A study of Drosophila melanogaster with 8 samples.

Results

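The proteasome genes of Drosophila melanogaster were followed in total RNA from testes of 5-day-old flies. Members were every gene of the deposited count table whose symbol begins with Prosalpha, Prosbeta, Rpn plus a number or Rpt plus a number. There were 47 such genes among 22887 features. A T or R after the subunit number marks a testis paralog, and 15 members carried one. The other 32 were standard subunits, of which 11 have at least 1 testis paralog among the members and 21 have none. CG30382, named Prosalpha1R in the annotation, is not a member by its symbol in the count table. Prosalpha1 is therefore counted among the 21.

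The 4 groups were a Tailor mutant, a Dis3L2 mutant, a mutant of both genes (the double mutant) and the w1118 strain, with 2 libraries each from independent dissections. Tailor is a uridylyltransferase that adds uridines to RNA 3′ ends, and Dis3L2 (Dis3l2, listed as CG16940) is a 3′ to 5′ exonuclease that degrades uridylated RNA. Alleles and the strain background of the mutants were not given in the sources used here. Total counts per library ran from 9781275 to 30059737, the lowest being double mutant replicate 2.

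The proteasome degrades ubiquitin-tagged proteins. A core particle of stacked alpha and beta rings holds the proteolytic sites, carried by the beta1, beta2 and beta5 subunits. A regulatory particle caps the core, with Rpt ATPases that unfold and feed in the substrate and Rpn subunits that recognise it and remove ubiquitin. In Drosophila many subunits have a second gene used in the male germline, and the paralog Prosalpha6T is known to be needed for normal sperm development.

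The targeted genes were checked first. Tailor had 19.0 and 20.5 CPM (counts per 1000000 of the scaled library size) in Tailor mutant testes, 96.8 and 95.6 CPM in Dis3L2 mutant testes, 22.8 and 21.1 CPM in double mutant testes, and 82.6 and 87.0 CPM in w1118. CG16940 had 89.6 and 93.9 CPM in Tailor mutant testes, 9.99 and 10.6 CPM in Dis3L2 mutant testes, 30.7 and 30.8 CPM in double mutant testes, and 115 and 117 CPM in w1118. Each gene was low in both groups labelled as its mutants.

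Markers of the tissue were present: all 10 spermatocyte and all 10 spermatid markers averaged over 5 CPM, and none was at 0. The 10 accessory gland markers, from an organ next to the testis, were present as well. Their sum was 34663 and 8220.4 CPM in Tailor mutant testes, 2569.2 and 3509.7 CPM in Dis3L2 mutant testes, 12455 and 9077.2 CPM in double mutant testes, and 10701 and 10174 CPM in w1118. Ribosomal RNA took 1.427 to 24.62% of the counts of a library, with both of these values in Dis3L2 mutant testes. In whole tissue, fewer cells of a type and less RNA per cell cannot be told apart.

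The testis paralogs comprise 4 alpha-ring genes, 6 beta-ring genes, 3 ATPase genes and 2 non-ATPase regulatory genes. Of the 15, 6 are annotated with a single exon, against 4 of the 32 standard subunits. On the X chromosome lie 2 testis paralogs (Prosbeta2R1 and Rpn13R) and 4 standard subunits (Prosalpha4, Rpt3, Rpt4 and Rpt6). All 4 of these X-linked standard subunits have a testis paralog, and every one of those paralogs is autosomal. Prosbeta4R1 and Prosbeta4R2 stand 1467 nt apart on chromosome 2L.

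All 47 members passed the filter on low counts. Median levels per kb of annotated exon differed between the classes in w1118, while the ranges of the classes overlapped. The median was 46.75 CPM per kb over the 15 testis paralogs, 34.62 CPM per kb over the 11 standard subunits with a testis paralog, and 87.19 CPM per kb over the 21 without. The highest testis paralog in w1118 was Prosalpha6T at 117 CPM per kb, and the lowest was Prosalpha4T1 at 32.4 CPM per kb. In w1118 the level per kb of the testis paralog was above that of its standard counterpart in 13 of 15 pairs, the exceptions being Prosalpha3T and Rpn13R. The count was 11 of 15 in Tailor mutant testes, 11 of 15 in Dis3L2 mutant testes and 12 of 15 in double mutant testes.

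Levels were summed over each class in each library. The testis paralogs summed to 1224.5 and 1051.7 CPM in Tailor mutant testes, 1223.0 and 1352.1 CPM in Dis3L2 mutant testes, 1330.4 and 1391.7 CPM in double mutant testes, and 1142.9 and 1164.7 CPM in w1118. The standard subunits summed to 3391.2 and 2882.5 CPM in Tailor mutant testes, 3023.2 and 3458.6 CPM in Dis3L2 mutant testes, 3294.5 and 3411.8 CPM in double mutant testes, and 3157.1 and 3100.1 CPM in w1118. Both sums were higher in both double mutant libraries than in either w1118 library. In the Dis3L2 mutant only the testis sum was, and the Tailor mutant sums lay on both sides of w1118. The testis paralogs took 26.53 and 26.73% of member CPM in Tailor mutant testes, 28.8 and 28.11% in Dis3L2 mutant testes, 28.77 and 28.97% in double mutant testes, and 26.58 and 27.31% in w1118. The share was above both w1118 libraries in every Dis3L2 and double mutant library.

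**Figure D1:**
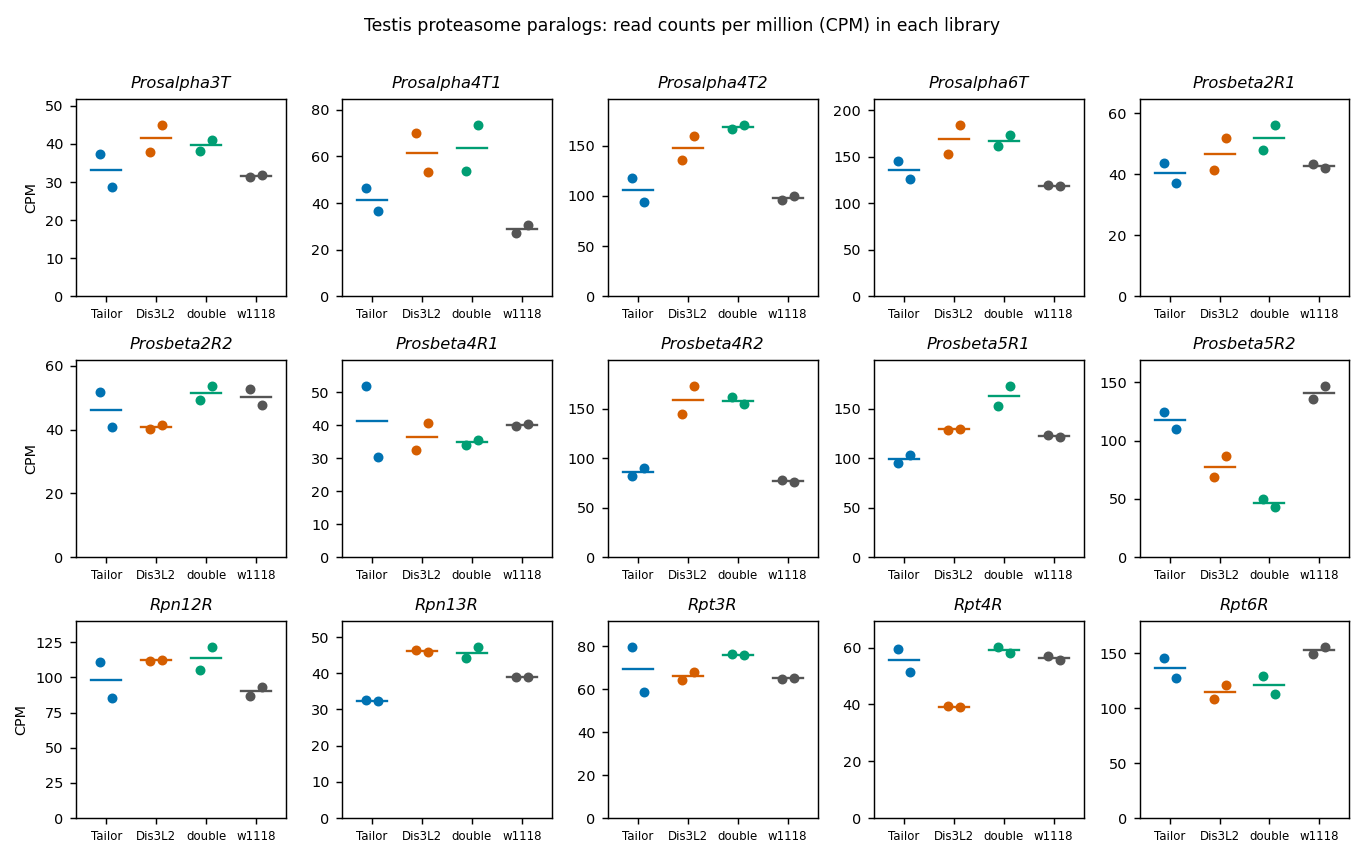
CPM (vertical axes, from 0, on a scale of its own for each gene) of the 15 testis paralogs in each library of the Tailor mutant, Dis3L2 mutant, double mutant and w1118; points are libraries and bars are group means of 2. Prosbeta5R2 is lowest in double mutant testes at 49.6 and 42.7 CPM, while Prosbeta4R2 reaches 145 CPM or more in every Dis3L2 and double mutant library.

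The Tailor mutant against w1118 asks which RNAs depend on uridylation by Tailor. No proteasome gene was called: 0 of 15 testis paralogs and 0 of 32 standard subunits reached an adjusted p of 0.05 or less by edgeR's quasi-likelihood test, where 2% of the 14246 features tested were called (1.22% higher and 0.779% lower). At an unadjusted p under 0.05 there were 2 testis paralogs and 0 standard subunits, against 14.7% of all features. DESeq2 called 0 of either class, against 506 of 14246 features. The median log2 fold change was 0.04 over the testis paralogs and 0.03 over the standard subunits, beside 0.02 over all features. Without Tailor mutant replicate 1 the medians were -0.14 and -0.10, and without replicate 2 they were 0.09 and 0.13. The 2 paralogs below the unadjusted threshold were Prosalpha4T1 and Prosbeta5R1.

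Prosalpha4T1 had 46.4 and 36.6 CPM in Tailor mutant testes, against 27.3 and 30.4 CPM in w1118, and Prosbeta5R1 had 95.4 and 103 CPM in Tailor mutant testes, against 123 and 122 CPM in w1118. The libraries did not overlap for either gene, and they did not overlap for 7 of the 15 testis paralogs and 12 of the 32 standard subunits in all, against 44.2% of all features. The adjusted p was 0.318 for Prosalpha4T1 and 0.269 for Prosbeta5R1. Among the 11 standard subunits with a testis paralog, 9 had a fold change above 0, with a median log2 fold change of 0.21, and the 21 without a paralog had a median of -0.01. The 11 had a median of 0.07, with 7 above 0, when Tailor mutant replicate 1 was left out, and of 0.36, with 10 above 0, when replicate 2 was. Leaving out w1118 replicate 1 gave 0.33 and w1118 replicate 2 gave 0.105. The 21 had medians of -0.12 without Tailor mutant replicate 1 and 0.07 without replicate 2. Prosbeta5, the standard subunit with the chymotrypsin-like site, had 86.0 and 52.5 CPM in Tailor mutant testes, against 52.5 and 50.3 CPM in w1118. Tailor mutant replicate 1 stood far above w1118 and replicate 2 at its level. Prosbeta5 was called when replicate 2 was left out, a fit in which calls over all features rose as well. Replicate 1 was also the library with the highest accessory gland marker sum. The spermatocyte markers summed to 1043.7 and 1005.1 CPM in Tailor mutant testes, against 1342.1 and 1384.9 CPM in w1118, and the 6 muscle markers to 670 and 782 CPM in Tailor mutant testes, against 469 and 449 CPM in w1118. The part of these sums in the proteasome values was not tested.

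The Dis3L2 mutant against w1118 asks which RNAs depend on the exonuclease. Of the 15 testis paralogs 3 rose and 2 fell, and no standard subunit was called, where 9.22% of all features were called (4.7% higher and 4.53% lower). Both testis paralogs of the alpha4 subunit and a paralog of beta4 were higher, and a paralog each of beta5 and of the ATPase Rpt4 was lower. At an unadjusted p under 0.05, 0 of the 32 standard subunits passed, against 24.6% of all features. DESeq2 called 0 of them, against 1625 of 14246 features. The libraries of the Dis3L2 mutant and w1118 did not overlap for 12 of 15 testis paralogs and 9 of 32 standard subunits, against 61.8% of all features. The median log2 fold change was 0.13 over the testis paralogs and 0.08 over the standard subunits, beside 0.00 over all features. Without Dis3L2 mutant replicate 1 these medians were 0.22 and 0.17, and the standard median was -0.01 without replicate 2.

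Prosbeta4R2, a paralog of a beta-ring subunit without a proteolytic site (chromosome 2L, 2655394 to 2657102, plus strand), had 145 and 173 CPM in Dis3L2 mutant testes, against 78.1 and 75.9 CPM in w1118. Every Dis3L2 mutant library stood well above every w1118 library, and the log2 fold change was 1.05 ± 0.13 (SE, n = 2 libraries each; edgeR adjusted p = 0.00439). Its neighbour Prosbeta4R1 had 32.3 and 40.7 CPM in Dis3L2 mutant testes, against 39.6 and 40.3 CPM in w1118, and was not called (adjusted p = 0.811). Exons of Prosbeta4R2 share 69 nt with Or23a on the same strand.

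Prosalpha4T1 (chromosome 3R, 20748184 to 20749074, minus strand, 1 exon) had 69.9 and 53.4 CPM in Dis3L2 mutant testes, against 27.3 and 30.4 CPM in w1118, a log2 fold change of 1.09 ± 0.22 (adjusted p = 0.0233). Prosalpha4T2 (chromosome 2R, 24500780 to 24502277, minus strand) had 136 and 160 CPM in Dis3L2 mutant testes, against 95.6 and 99.5 CPM in w1118, a rise of 0.60 ± 0.14 in log2 (adjusted p = 0.043). The groups did not overlap for either gene. Their standard counterpart Prosalpha4 had 32.4 and 39.1 CPM in Dis3L2 mutant testes, against 33.1 and 31.2 CPM in w1118, and these overlapped (log2 fold change 0.15 ± 0.17, adjusted p = 0.645). Prosalpha6T, whose loss is known to impair sperm, had 153 and 184 CPM in Dis3L2 mutant testes, against 119 and 119 CPM in w1118, without reaching the threshold (log2 fold change 0.50 ± 0.13, adjusted p = 0.0597).

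Prosbeta5R2, a paralog of the beta5 proteolytic subunit (chromosome 2L, 17990418 to 17991951, plus strand, 1 exon), had 68.5 and 86.7 CPM in Dis3L2 mutant testes, against 135 and 147 CPM in w1118. It fell by 0.86 ± 0.15 on the log2 scale (adjusted p = 0.0167). The other beta5 paralog, Prosbeta5R1, had 129 and 130 CPM in Dis3L2 mutant testes, against 123 and 122 CPM in w1118, a difference of 0.08 ± 0.11 in log2 (adjusted p = 0.731). Rpt4R, a paralog of an ATPase of the regulatory particle (chromosome 3L, 11941912 to 11943485, plus strand), had 39.42 and 39.03 CPM in Dis3L2 mutant testes, against 57.2 and 55.7 CPM in w1118. It fell by 0.52 ± 0.12 on the log2 scale (adjusted p = 0.0398).

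These Dis3L2 mutant calls could be lost when 1 library was left out, while the fold changes kept their sign. Over all alternatives the log2 fold change ran from 0.94 to 1.16 for Prosbeta4R2, 0.88 to 1.31 for Prosalpha4T1 and 0.51 to 0.89 for Prosalpha4T2. It ran from -1.02 to -0.63 for Prosbeta5R2 and from -0.55 to -0.35 for Rpt4R. A fit without 1 library rests 1 group on a lone library, and modest differences can go uncalled. Calls over all features fell as well when a library of the Dis3L2 mutant, the double mutant or w1118 was left out. Prosbeta4R2 lost its call when w1118 replicate 2 was left out (adjusted p = 0.051). Prosbeta5R2 lost it without Dis3L2 mutant replicate 1 (0.093), w1118 replicate 1 (0.0852) or w1118 replicate 2 (0.107), as adjusted p-values of the same test. Prosalpha4T1 lost it without either Dis3L2 mutant library (0.146 and 0.0565) or either w1118 library (0.183 and 0.139). Prosalpha4T2 and Rpt4R lost it without any 1 library of the Dis3L2 mutant, the double mutant or w1118, with adjusted p between 0.0742 and 0.248 for Prosalpha4T2 and between 0.0757 and 0.261 for Rpt4R. With the accessory gland marker sum as a covariate, chosen after seeing the data, the adjusted p was 0.067 for Prosbeta5R2 and 0.151 for Rpt4R, and the other 3 kept their calls. Prosalpha4T2 also lost its call with upper quartile scaling (0.0539) and with ribosomal RNA left out (0.0504), and Rpt4R with no filter on low counts (0.0533).

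Summed levels of the other marker lists moved with this comparison as well. The 10 spermatocyte markers summed to 1598 and 1570.6 CPM in Dis3L2 mutant testes, against 1342.1 and 1384.9 CPM in w1118. The 10 spermatid markers summed to 3717.3 and 4257.7 CPM in Dis3L2 mutant testes, against 3766.4 and 3898.8 CPM in w1118, and overlapped. The 7 early germline markers summed to 151 and 149 CPM in Dis3L2 mutant testes, against 123 and 122 CPM in w1118. The 5 cyst and hub markers summed to 158 and 156 CPM in Dis3L2 mutant testes, against 100.4 and 99.3 CPM in w1118, and the 5 blood markers to 280.1 and 279 CPM in Dis3L2 mutant testes, against 139 and 135 CPM in w1118. These 3 lists, with the spermatocyte list, were higher in both mutant libraries. The 6 fat body markers summed to 92.4 and 92.6 CPM in Dis3L2 mutant testes, against 229.5 and 186 CPM in w1118, and the muscle markers to 389 and 373 CPM in Dis3L2 mutant testes, against 469 and 449 CPM in w1118. Fat body, muscle and accessory gland sums were lower in both mutant libraries than in either w1118 library. Apart from the accessory gland covariate, the part of these shifts in the proteasome values was not tested. The accessory gland sum was lower in both Dis3L2 mutant libraries than in any other library, so that covariate moved together with the genotype.

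Which RNAs change when both enzymes are lost is the question of the double mutant against w1118. Of the 15 testis paralogs 3 rose and 1 fell, and no standard subunit was called, where 11.6% of all features were called (6.66% higher and 4.91% lower). The median log2 fold change was 0.28 over the testis paralogs and 0.04 over the standard subunits, beside -0.06 over all features. The standard median ran from 0.02 without w1118 replicate 2 to 0.11 without w1118 replicate 1. The libraries of the double mutant and w1118 did not overlap for 14 of 15 testis paralogs and 21 of 32 standard subunits, against 69.9% of all features. At an unadjusted p under 0.05, 0 of 32 standard subunits passed, where 30.4% of all features did. DESeq2 called 0 of them, against 2180 of 14246 features. In a fit of the double mutant and w1118 libraries alone, 3786 of 13728 features were called. Among these were 4 of the 32 standard subunits: Rpn10, Rpn7 and Prosbeta6 higher, and Prosalpha1 lower, named here after their values were seen. Prosalpha1 has a near copy, CG30382 (Prosalpha1R in the annotation), that lies 1734 nt away. The counts of CG30382 differed from those of Prosalpha1 by -4.08 to 3.7%, so the value of Prosalpha1 is uncertain.

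Prosbeta5R2 had 49.6 and 42.7 CPM in double mutant testes, against 135 and 147 CPM in w1118. Both double mutant libraries were far below w1118, at 32.6% of the w1118 mean. It fell by 1.61 ± 0.16 on the log2 scale (adjusted p = 0.00232), and it kept its call in every alternative run, with a highest adjusted p of 0.0308. Prosbeta5R1 had 153 and 173 CPM in double mutant testes, against 123 and 122 CPM in w1118, just short of the threshold (log2 fold change 0.41 ± 0.11, adjusted p = 0.0544). The standard Prosbeta5 had 50.1 and 52.9 CPM in double mutant testes, against 52.5 and 50.3 CPM in w1118, and overlapped.

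Prosbeta4R2 had 161 and 155 CPM in double mutant testes, against 78.1 and 75.9 CPM in w1118, a log2 fold change of 1.04 ± 0.13 (adjusted p = 0.00503). Prosalpha4T1 had 53.7 and 73.7 CPM in double mutant testes, against 27.3 and 30.4 CPM in w1118, a log2 fold change of 1.14 ± 0.22 (adjusted p = 0.0199). Prosalpha4T2 had 167 and 171 CPM in double mutant testes, against 95.6 and 99.5 CPM in w1118, a log2 fold change of 0.79 ± 0.14 (adjusted p = 0.0168). All 3 were higher in both double mutant libraries than in either w1118 library. Their standard counterparts Prosbeta4 and Prosalpha4 had log2 fold changes of -0.18 ± 0.19 and 0.03 ± 0.17.

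Leaving out w1118 replicate 1 or 2 ended the calls of Prosbeta4R2, Prosalpha4T1 and Prosalpha4T2 in double mutant testes. Without double mutant replicate 2, Prosalpha4T1 and Prosalpha4T2 lost their calls, and without double mutant replicate 1, Prosalpha4T2 did. Calls over all features fell as well in each of these fits. Over all alternatives the log2 fold change ran from 1.01 to 1.09 for Prosbeta4R2, 0.91 to 1.35 for Prosalpha4T1 and 0.78 to 0.82 for Prosalpha4T2. With the accessory gland covariate, 7 testis paralogs were called, 5 higher and 2 lower: the 4 above with Prosalpha6T, Prosbeta5R1 and Rpt6R. Calls over all features rose as well, to 3554 of 14246 with this covariate from 1648 of 14246 without it. Rpt6R, an ATPase paralog, had 129 and 113 CPM in double mutant testes, against 149 and 156 CPM in w1118 (log2 fold change -0.33 ± 0.13, adjusted p = 0.132 without the covariate). The spermatocyte markers summed to 1921.7 and 1799.6 CPM in double mutant testes, against 1342.1 and 1384.9 CPM in w1118, and the spermatid markers to 5005.9 and 4680.2 CPM in double mutant testes, against 3766.4 and 3898.8 CPM in w1118. The early germline markers summed to 192 and 195 CPM in double mutant testes, against 123 and 122 CPM in w1118. Cyst and hub markers summed to 122 and 111 CPM in double mutant testes, against 100.4 and 99.3 CPM in w1118, and blood markers to 219.6 and 154 CPM in double mutant testes, against 139 and 135 CPM in w1118. All 5 of these sums were higher in both double mutant libraries. The fat body markers were lower, at 109.9 and 100.4 CPM in double mutant testes, against 229.5 and 186 CPM in w1118, and so were the 5 midgut markers, at 0.931 and 1.35 CPM in double mutant testes, against 36.4 and 422 CPM in w1118. The part of these sums in the proteasome values was not tested.

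**Figure D2:**
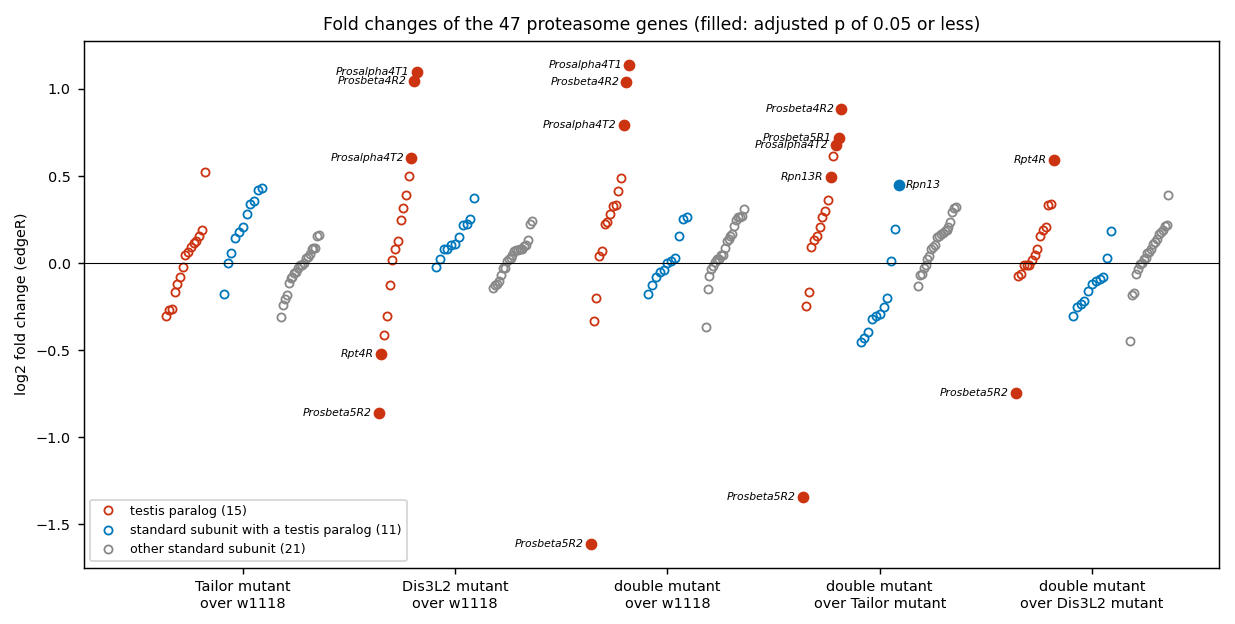
log2 fold change (vertical axis) of the 47 proteasome genes in each comparison (horizontal axis), with testis paralogs in red, standard subunits with a testis paralog in blue and the other standard subunits in grey; filled points have an adjusted p of 0.05 or less. Filled points are testis paralogs except Rpn13 in the double mutant over the Tailor mutant, and Prosbeta5R2 is lowest at -1.61 in the double mutant over w1118.

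By ring, all 4 alpha paralogs (Prosalpha3T, Prosalpha4T1, Prosalpha4T2 and Prosalpha6T) had a fold change above 0 against w1118 in each mutant, with a median log2 fold change of 0.15 in Tailor mutant testes, 0.55 in Dis3L2 mutant testes and 0.64 in double mutant testes. Without Tailor mutant replicate 1, 2 of the 4 were above 0 in the Tailor mutant over w1118, with a median of 0.03, and without replicate 2 the median was 0.28. These 3 comparisons share the w1118 libraries. The 6 beta paralogs were split, with Prosbeta4R2 higher and Prosbeta5R2 lower in both the Dis3L2 and the double mutant. The standard counterpart of Prosalpha6T, Prosalpha6, had 49.1 and 45.3 CPM in double mutant testes, against 53.9 and 46.0 CPM in w1118, and was not called (log2 fold change -0.08 ± 0.17, adjusted p = 0.778).

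The remaining paralogs showed smaller differences. Prosalpha3T had 37.8 and 45.1 CPM in Dis3L2 mutant testes and 38.2 and 41.1 CPM in double mutant testes, against 31.4 and 31.8 CPM in w1118, and was not called in either. Prosbeta2R1, a paralog of the trypsin-like subunit, had 47.9 and 56.3 CPM in double mutant testes, against 43.4 and 42.1 CPM in w1118 (log2 fold change 0.28 ± 0.16, adjusted p = 0.283). Prosbeta2R2, its other paralog, had 40.2 and 41.4 CPM in Dis3L2 mutant testes and 49.4 and 53.8 CPM in double mutant testes, against 52.8 and 47.7 CPM in w1118. Its Dis3L2 mutant libraries lay below those of the double mutant and w1118, at -0.30 ± 0.15 in log2 over w1118 (adjusted p = 0.274), and the double over the Dis3L2 mutant was 0.34 ± 0.15 (adjusted p = 0.202). The double mutant overlapped w1118. The standard Prosbeta2 had 32.3 and 33.3 CPM in double mutant testes, against 37.3 and 34.3 CPM in w1118, and was not called (-0.13 ± 0.13, adjusted p = 0.528). Rpn12R, a paralog of a lid subunit, had 105 and 122 CPM in double mutant testes, against 86.7 and 93.4 CPM in w1118 (log2 fold change 0.33 ± 0.15, adjusted p = 0.191). Rpt3R, an ATPase paralog, had 76.5 and 75.7 CPM in double mutant testes, against 64.7 and 65.4 CPM in w1118 (log2 fold change 0.23 ± 0.15, adjusted p = 0.355). The double mutant libraries stood above the w1118 libraries for both Rpn12R and Rpt3R.

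The double mutant against the Tailor mutant asks what the Dis3L2 mutation adds when Tailor is already mutated. Alleles and strain background of the mutants were not given, so a difference cannot be assigned to Dis3L2 alone. In this comparison 6 of 47 members were called, 5 higher and 1 lower, where 14.7% of all features were called (8.13% higher and 6.54% lower). The libraries did not overlap for 9 of 15 testis paralogs and 14 of 32 standard subunits, against 56.5% of all features. The 6 called members were the testis paralogs Prosbeta4R2, Prosbeta5R1, Prosalpha4T2 and Rpn13R and the standard Rpn13, all higher, and Prosbeta5R2, lower. Rpn13 is a ubiquitin receptor of the regulatory particle. In a fit of the double and Tailor mutant libraries alone 0 of the 47 members were called, where only 20 of 13717 features were. The spermatocyte markers summed to 1921.7 and 1799.6 CPM in double mutant testes, against 1043.7 and 1005.1 CPM in Tailor mutant testes, and the early germline markers to 192 and 195 CPM in double mutant testes, against 107 and 125 CPM in Tailor mutant testes. Cyst and hub markers summed to 122 and 111 CPM in double mutant testes, against 96.1 and 103 CPM in Tailor mutant testes. Lower in both double mutant libraries were the fat body markers, at 109.9 and 100.4 CPM in double mutant testes, against 204 and 245 CPM in Tailor mutant testes, and the muscle markers, at 426 and 621 CPM in double mutant testes, against 670 and 782 CPM in Tailor mutant testes. The part of these sums in the proteasome values was not tested.

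Prosbeta5R2 had 49.6 and 42.7 CPM in double mutant testes, against 125 and 110 CPM in Tailor mutant testes (log2 fold change -1.34 ± 0.16, adjusted p = 0.00603). Prosbeta4R2 had 161 and 155 CPM in double mutant testes, against 81.7 and 89.7 CPM in Tailor mutant testes (0.88 ± 0.13, adjusted p = 0.00936). Prosbeta5R1 had 153 and 173 CPM in double mutant testes, against 95.4 and 103 CPM in Tailor mutant testes (0.72 ± 0.11, adjusted p = 0.0118). The libraries of the double and Tailor mutants did not overlap for any of these genes, and the beta5 paralogs moved in opposite directions.

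Prosalpha4T2 had 167 and 171 CPM in double mutant testes, against 117 and 93.9 CPM in Tailor mutant testes (log2 fold change 0.68 ± 0.14, adjusted p = 0.0244). Rpn13R had 44.1 and 47.4 CPM in double mutant testes, against 32.5 and 32.3 CPM in Tailor mutant testes (0.50 ± 0.12, adjusted p = 0.0327). Rpn13 had 144 and 157 CPM in double mutant testes, against 111 and 110 CPM in Tailor mutant testes (0.45 ± 0.12, adjusted p = 0.045). The receptor and its testis paralog were thus both higher. Calls over all features in this comparison fell when a library of the Dis3L2 mutant, the double mutant or w1118 was left out. The Rpn13 call was lost whichever of the 8 libraries was left out (adjusted p 0.0506 to 0.194), and that of Rpn13R without any library other than those of the Tailor mutant (0.0531 to 0.156). Prosalpha4T2 lost its call without either double mutant library (0.0925 and 0.12) or either w1118 library (0.0579 and 0.0556). Prosbeta4R2 lost it without either double mutant library (0.0546 and 0.0623), and Prosbeta5R1 (0.0816) and Prosbeta5R2 (0.0593) without replicate 2.

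In the same comparison the 11 standard subunits with a testis paralog had a median log2 fold change of -0.29, with 8 below 0. The 21 without had a median of 0.15, with 16 above 0, and all features had a median of -0.09. Without Tailor mutant replicate 1 the 11 had a median of -0.06, with 7 below 0, and the 21 a median of 0.25, beside -0.04 over all features. Without replicate 2 the 11 had a median of -0.38 and the 21 a median of 0.05, beside -0.01 over all features. Of the 32 standard subunits, 5 had an unadjusted p under 0.05, where 33.2% of all features did. Rpt3, a standard ATPase, had 20.1 and 21.7 CPM in double mutant testes, against 29.6 and 25.3 CPM in Tailor mutant testes (log2 fold change -0.39 ± 0.17, adjusted p = 0.147). Rpn12, a lid subunit, had 23.1 and 18.4 CPM in double mutant testes, against 34.9 and 22.3 CPM in Tailor mutant testes (log2 fold change -0.45 ± 0.24, adjusted p = 0.234). Tailor mutant replicate 1 was the higher of the pair for both genes.

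The double mutant against the Dis3L2 mutant asks what loss of Tailor adds when Dis3L2 is already lost. CG16940 had 30.7 and 30.8 CPM in double mutant testes, against 9.99 and 10.6 CPM in Dis3L2 mutant testes, and the alleles were not given. A difference between these groups thus cannot be assigned to Tailor alone. In this comparison 2 of 47 members were called, 1 higher and 1 lower, where 9.05% of all features were called (4.77% higher and 4.27% lower). The libraries did not overlap for 6 of 15 testis paralogs and 9 of 32 standard subunits, against 59.7% of all features. Prosbeta5R2 had 49.6 and 42.7 CPM in double mutant testes, against 68.5 and 86.7 CPM in Dis3L2 mutant testes (log2 fold change -0.75 ± 0.16, adjusted p = 0.0297). Rpt4R had 60.4 and 58.0 CPM in double mutant testes, against 39.42 and 39.03 CPM in Dis3L2 mutant testes (0.59 ± 0.12, adjusted p = 0.0287). Rpt4R was therefore low in the Dis3L2 mutant alone, with 59.7 and 51.3 CPM in Tailor mutant testes and 57.2 and 55.7 CPM in w1118. Both calls were lost when any 1 library of the double mutant, the Dis3L2 mutant or w1118 was left out, where calls over all features fell as well. Over all alternatives the log2 fold change ran from -0.99 to -0.60 for Prosbeta5R2 and from 0.41 to 0.64 for Rpt4R. Rpt4R was not called with the accessory gland covariate (adjusted p = 0.147). The sums of 8 of the 9 marker lists, all but midgut, did not overlap between these groups. Spermatocyte markers summed to 1921.7 and 1799.6 CPM in double mutant testes, against 1598 and 1570.6 CPM in Dis3L2 mutant testes, spermatid markers to 5005.9 and 4680.2 CPM in double mutant testes, against 3717.3 and 4257.7 CPM in Dis3L2 mutant testes, and early germline markers to 192 and 195 CPM in double mutant testes, against 151 and 149 CPM in Dis3L2 mutant testes. Accessory gland markers summed to 12455 and 9077.2 CPM in double mutant testes, against 2569.2 and 3509.7 CPM in Dis3L2 mutant testes, and muscle markers to 426 and 621 CPM in double mutant testes, against 389 and 373 CPM in Dis3L2 mutant testes. Fat body markers summed to 109.9 and 100.4 CPM in double mutant testes, against 92.4 and 92.6 CPM in Dis3L2 mutant testes. Those 6 lists were higher in both double mutant libraries. Cyst and hub markers were lower, at 122 and 111 CPM in double mutant testes, against 158 and 156 CPM in Dis3L2 mutant testes, as were blood markers, at 219.6 and 154 CPM in double mutant testes, against 280.1 and 279 CPM in Dis3L2 mutant testes. Apart from the accessory gland covariate, their part in the proteasome values was not tested.

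Whether the effect of 1 mutation depended on the other was tested as an interaction (double mutant minus Tailor mutant minus Dis3L2 mutant plus w1118). This takes the Dis3L2 mutation as the same in both of its groups, though their CG16940 levels differed and the alleles were not given. No member was called by edgeR, where 4.08% of all features were (1.99% above 0 and 2.08% below), and the lowest adjusted p among the testis paralogs was 0.0701, for Prosbeta5R1 (log2 0.64 ± 0.16). DESeq2 called Prosbeta5R1 alone among the members, where it called 1096 of 14246 features. At an unadjusted p under 0.05 there were 2 testis paralogs (Prosbeta5R1 and Rpt4R) and 2 standard subunits, against 22.3% of all features. Rpt4R had an interaction of 0.62 ± 0.17 (adjusted p = 0.095) and was called without Tailor mutant replicate 1. Without Tailor mutant replicate 2, Prosbeta5 and Prosbeta5R1 were called. Interaction calls over all features rose as well when either Tailor mutant library was left out. Of the 11 standard subunits with a testis paralog, 10 had an interaction below 0, with a median of -0.40, beside -0.06 over all features. Without Tailor mutant replicate 1 the median of the 11 was -0.17, with 8 below 0, beside 0.01 over all features.

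Ratios within a library do not depend on library scaling. On the scale of CPM per kb, the mean ratio of Prosbeta5R2 to Prosbeta5 was 1.29 in Tailor mutant testes, 1.06 in Dis3L2 mutant testes, 0.664 in double mutant testes and 2.04 in w1118. Both double mutant libraries were below 1 and all others above it. The ratio of Prosbeta4R2 to Prosbeta4 was 1.24 in Tailor mutant testes, 2.54 in Dis3L2 mutant testes, 2.83 in double mutant testes and 1.21 in w1118. That of Prosalpha4T2 to Prosalpha4 was 2.54 in Tailor mutant testes, 3.89 in Dis3L2 mutant testes, 4.82 in double mutant testes and 2.84 in w1118. For both of these pairs, every Dis3L2 and double mutant library had a higher ratio than every Tailor mutant and w1118 library.

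Prosalpha4T1 over Prosalpha4 had a mean ratio of CPM per kb of 1.40 in Tailor mutant testes, 2.27 in Dis3L2 mutant testes, 2.53 in double mutant testes and 1.18 in w1118. Rpt4R over Rpt4 had a mean ratio of 1.16 in Tailor mutant testes, 0.813 in Dis3L2 mutant testes, 1.42 in double mutant testes and 1.51 in w1118. The Dis3L2 mutant was the only group in which both libraries had less Rpt4R than Rpt4 per kb. Rpn12R over Rpn12 was the widest ratio, at 3.70 in Tailor mutant testes, 4.82 in Dis3L2 mutant testes, 5.82 in double mutant testes and 4.46 in w1118. Prosalpha3T stayed below Prosalpha3 in every library, at ratios between 0.353 and 0.41.

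**Figure D3:**
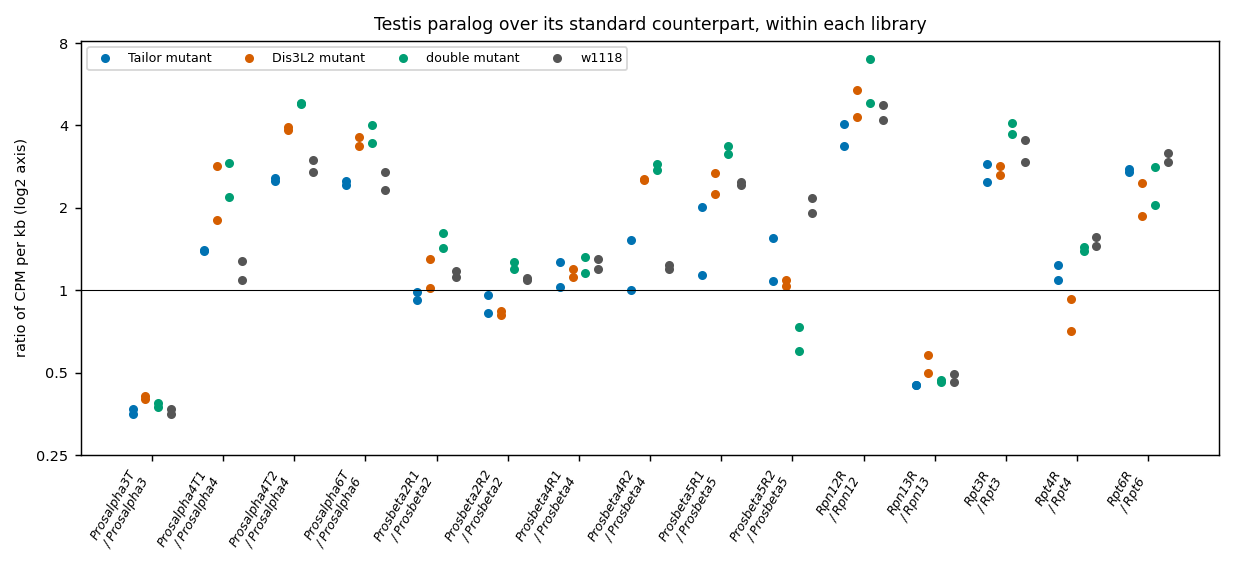
Ratio of CPM per kb of each testis paralog to its standard counterpart (vertical axis, log2 scale) in each library, for 15 pairs (horizontal axis), with groups in the order Tailor mutant, Dis3L2 mutant, double mutant and w1118. The Prosbeta5R2 to Prosbeta5 ratio averages 0.664 in double mutant testes and 2.04 in w1118, and the Prosbeta4R2 to Prosbeta4 ratio 2.83 in double mutant testes and 1.21 in w1118.

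Proteasome partners were described from a list of 27 genes, of which 25 were used: activators, assembly factors, ubiquitin shuttles, deubiquitinases, the TER94 segregase, transcription factors and ubiquitin supply. None of 25 was called in the Tailor or Dis3L2 mutant over w1118, where 2 in the Tailor mutant comparison and 5 in the Dis3L2 mutant comparison had an unadjusted p under 0.05, against 14.7% and 24.6% of all features, of which 2% and 9.22% were called. In the double mutant over w1118, 3 of 25 rose and 3 fell, where 11.6% of all features were called, with a median log2 fold change of 0.17 over the list, beside -0.06 over all features. The higher genes were TER94, dbo and Ubqn, and 2 of the 3 lower ones, RpS27A and RpL40, encode ubiquitin fused to a ribosomal protein. The other ubiquitin supply genes, Ubi-p63E, Uba1 and Ubi-p5E, were not called. Ubi-p63E, the highest of the list, had 6211 and 5604 CPM in double mutant testes, against 4014 and 4238 CPM in w1118. Uba1 had 379 and 460 CPM in double mutant testes, against 295 and 298 CPM in w1118. Ubi-p5E overlapped between these groups. 

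TER94, the segregase that pulls ubiquitinated proteins out of complexes, had 928 and 1033 CPM in double mutant testes, against 670 and 652 CPM in w1118 (log2 fold change 0.57 ± 0.14, adjusted p = 0.0416). dbo, a BTB-Kelch protein of the Cul3 adaptor type, had 119 and 137 CPM in double mutant testes, against 68.6 and 67.3 CPM in w1118 (0.91 ± 0.12, adjusted p = 0.0061). Ubqn, a ubiquitin shuttle, had 161 and 189 CPM in double mutant testes, against 122 and 119 CPM in w1118 (0.54 ± 0.13, adjusted p = 0.0421). Both double mutant libraries exceeded both w1118 libraries for each.

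RpS27A had 230 and 207 CPM in double mutant testes, against 486 and 438 CPM in w1118 (log2 fold change -1.08 ± 0.20, adjusted p = 0.0168). RpL40 had 131 and 161 CPM in double mutant testes, against 249 and 243 CPM in w1118 (-0.76 ± 0.19, adjusted p = 0.045). maf-S, a small Maf protein that pairs with the transcription factor cnc, had 34.3 and 30.9 CPM in double mutant testes, against 48.6 and 46.4 CPM in w1118 (-0.54 ± 0.13, adjusted p = 0.0363). The double mutant libraries were lower than both w1118 libraries for these 3 genes. Of the 6 partner calls, that of dbo was lost in 2 of 8 fits that left out 1 library, RpS27A in 4, Ubqn in 5, and TER94, RpL40 and maf-S in 6.

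In the double mutant over the Tailor mutant, 6 of 25 partners rose and 2 fell, where 14.7% of all features were called (8.13% higher and 6.54% lower). Besides dbo and TER94, the higher genes were Uba1, the ubiquitin-activating enzyme (log2 fold change 0.67), Cul3, a ubiquitin ligase scaffold (0.49), Uch-L5, a deubiquitinase of the regulatory particle (0.46), and rngo, a ubiquitin shuttle (0.41). RpS27A and RpL40 were the lower ones. Of the 8 fits that left out 1 library, 0 ended the call of dbo, 2 that of RpS27A, 4 that of TER94, 5 that of Uch-L5, 6 that of Uba1, and 7 those of Cul3, rngo and RpL40. In the double mutant over the Dis3L2 mutant only rngo of the 25 was called, where 9.05% of all features were, with 115 and 125 CPM in double mutant testes, against 85.6 and 90.0 CPM in Dis3L2 mutant testes (0.45 ± 0.11, adjusted p = 0.0432), a call lost in 6 of those 8 fits. These comparisons share the double mutant libraries with each other.

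**Figure D4:**
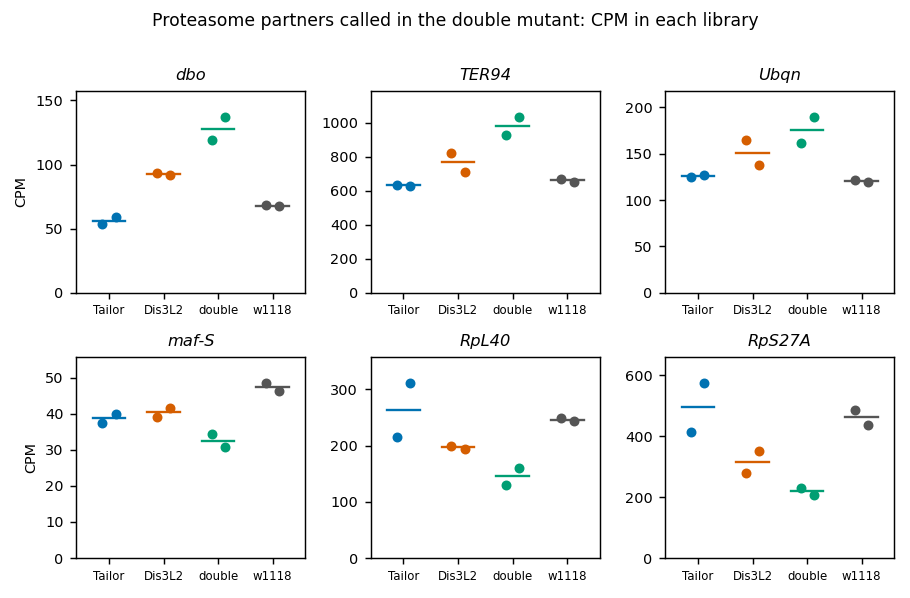
CPM (vertical axes, from 0, on a scale of its own for each gene) of the 6 partner genes called in the double mutant over w1118, in each library; points are libraries and bars are group means of 2. TER94, dbo and Ubqn are highest in double mutant testes, and RpS27A, RpL40 and maf-S are lowest there, with RpS27A at 230 and 207 CPM.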

How the data were processed

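Total RNA of 8 testis libraries (Trizol extraction, Illumina total RNA kit from 650 ng, 8 PCR cycles, paired reads, per the labels' protocols) was sequenced. Trimmomatic 0.36, HISAT2 and the dm6 genome are named in the submitters' processing notes. How reads were counted, with which annotation and strand setting, is not given in the sources used here. The authors deposited raw read counts per feature, with 1 column per library, and 0 columns were left unmapped. Without known strand, reads cannot be assigned between a gene and its antisense partner; exons of 13 of 32 standard subunits and 1 of 15 testis paralogs overlap a gene on the opposite strand.

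Counts were tested with edgeR 4.0.16 in R 4.3.3 (quasi-likelihood fit, TMM scaling, minimum count of 10, group as the term, all 8 libraries sharing 1 estimate of spread) over 14246 features, with Benjamini-Hochberg adjustment over all of them and a threshold of 0.05. Levels per kb used exon lengths of the Ensembl annotation. Errors are SE from the fit; p-values measure spread between dissections. DESeq2 1.42.0 was an alternative, with other scalings and filters, a replicate block and fits leaving out 1 library. The code was tested on simulated data: simulated 2-fold changes were mostly missed, so 4-fold changes were used, and an uncalled gene may still differ.

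Members and lists were chosen with earlier results of these data known. Every testis paralog, its standard counterpart, called standard subunits and called partners were named. Of the partner list, CG13319 was left out because its identity could not be relied on, and klhl10 because it had no reads. No sequence was used here.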

Additional observations from a re-analysis of the deposited data

Results flagged for a closer look

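The effect of the Dis3L2 mutation on CG16940, the Dis3l2 gene itself, differed with the Tailor mutation. CG16940 had 30.7 and 30.8 CPM in the double mutant, against 89.6 and 93.9 CPM in the Tailor mutant, and 9.99 and 10.6 CPM in the Dis3L2 mutant, against 115 and 117 CPM in w1118. The interaction was 1.91 ± 0.15 on the log2 scale (edgeR adjusted p = 0.00254), so that the fall was smaller in the double mutant. The alleles were not given in the sources used here.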

How the results depend on the processing

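With 2 libraries a group, a fit that leaves out 1 rests on a lone library assumed to vary like the others, and modest differences can go uncalled. No called member value changed sign in any alternative. Of the 17 called member values, RLE scaling, a minimum count of 50 and DESeq2 kept 17, upper quartile scaling and no filter 16, leaving out ribosomal RNA 15, the accessory gland covariate 14, fits of only the libraries compared 11 and the replicate block 10. The block is only a shared number: same-number correlations of deviations ran from -0.303 to 0.3, so it is no pairing. With it 3 testis paralogs were called in the Dis3L2 mutant over w1118, against 5. Called members were 3 in the double over the Tailor mutant, against 6, and 0 in the double over the Dis3L2 mutant, against 2. Over all features, calls in these comparisons were 851 against 1314, 1127 against 2090 and 696 against 1289. With only the libraries compared, 4 standard subunits were called in the double mutant over w1118 and 0 members in the double over the Tailor mutant. Those fits called 3786 of 13728 and 20 of 13717 features. DESeq2 called 1 member in the interaction, where it called 1096 of 14246 features. The accessory gland covariate, chosen after seeing the data, gave 3 standard subunits (Rpt4, Prosbeta5 and Rpn12, all higher) in the Dis3L2 mutant over w1118, 7 testis paralogs in the double mutant over w1118, 1 member in the double over the Dis3L2 mutant and 4 in the interaction. Of all 14246 features it called 1968, 3554, 739 and 1246 in those comparisons. Leaving out 1 library also changed how many members were called. Calls over all features fell in every comparison without a library of the Dis3L2 mutant, the double mutant or w1118. They rose in every comparison without a Tailor mutant library. Calls lost or gained in these fits are thus not particular to the proteasome genes. In those fits the median log2 fold change of the testis paralogs ran from 0.09 to 0.22 in the Dis3L2 mutant over w1118. It ran from 0.24 to 0.38 in the double mutant over w1118 and from -0.14 to 0.09 in the Tailor mutant over w1118. The cause of these changes was not tested.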
